A study of Mus musculus with 6 samples.

Results

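Genes that the peroxisome proliferator-activated receptors (PPARs) switch on to handle fat were followed in the gastrocnemius (Gas) muscle of mice without miR-92b. The 9 genes were taken by name from the 34714 gene symbols of the count table, and all 9 passed the filter on low counts. They are the fatty acid uptake genes Lpl, Cd36 and Fabp3, the lipase inhibitor gene Angptl4, the lipid droplet genes Plin2 and Plin5, the thioesterase gene Acot1, and the uncoupling protein genes Ucp2 and Ucp3. Gas RNA was sequenced from 3 wild-type mice (WT) and 3 mice with a global knockout of miR-92b (M92KO), with 1 library for each mouse. All mice were 8 weeks old, untreated and on a standard rodent diet. The knockout mice carried the allele C57BL/6JGpt-Mir-92bem22Cd549/Gpt, a deletion present in every tissue and not in muscle alone. Per the study's methods they were males whose miR-92b exons were deleted, and age-matched C57BL/6 mice that are not described as littermates served as WT. The study's supplementary methods describe an overnight fast of all mice before they were killed and their tissues taken. The labels of these libraries give free access to food and do not mention a fast. The same methods place muscle performance and endurance tests before that fast. They do not say whether the mice of these libraries took those tests.

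Levels of Ucp3, Angptl4, Acot1 and Plin5 were lower in the M92KO muscles at the study's unadjusted threshold of 0.05. None of the 4 kept this call after adjustment over all genes. Of all genes tested, 6.92% were lower and 5.47% were higher at that threshold, and 0 passed the adjustment in the main test (edgeR). Mean Ucp3 was 334 ± 116 CPM (counts scaled to the size of the library; SD, n = 3) in WT and 167 ± 48.7 CPM in M92KO mice. The 3 fatty acid uptake genes, which are the most abundant of the 9 together with Ucp3, had levels in M92KO mice of 0.935 to 1.06 times those in WT and were not called. The 2 most variable genes, Angptl4 and Ucp3, ranked the 6 libraries in the same order, and in both of them the first M92KO library lay above the first WT library.

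PPARs are nuclear receptors that bind fatty acids and pair with retinoid X receptors (RXRs) on the DNA of their target genes. In skeletal muscle their targets bring fatty acids into the fibre, carry them through the cytosol, coat the droplets in which they are stored, and handle them at the mitochondria. Several of these genes are known to be induced when fatty acids reach the muscle in quantity, as in fasting or endurance exercise.

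The deleted gene gives rise to a pair of mature miRNAs, which are shown because a seed (bases 2 to 8, in capitals) is the part that pairs with a target. Both are from RefSeq on GRCm38.p6, on the minus strand, at chr3:89227126-89227147 for miR-92b-3p and chr3:89227165-89227188 for miR-92b-5p.
miR-92b-3p: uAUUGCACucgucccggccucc
miR-92b-5p: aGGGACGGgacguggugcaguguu
A match to bases 2 to 8 of a mature miRNA, or to bases 2 to 7 followed by an A, was looked for in the annotated 3′-UTRs of 20095 genes. For miR-92b-3p such a match was present in 2727 genes (13.6%) and in 1 of the 9 PPAR targets, Cd36. For miR-92b-5p it was present in 927 genes (4.61%) and in 0 of the 9. The Cd36 match is of the second kind, at chr5:17783153-17783159 on the minus strand of GRCm38, and is shown with its flanks in DNA letters, with the match in capitals.
Cd36 3′-UTR: tatatatataTGCAATAagtcacagcatat
Counts for the miR-92b gene itself were not analysed here, so the deletion was not checked in these libraries.

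PPAR and RXR pairs bind repeats of the hexamer AGGTCA, and RefSeq promoter windows from 250 bases before to 50 bases after a transcription start were searched on both strands. The windows cover 7 of the 9 genes, with Angptl4 and Lpl not among them, and Plin5 has windows for 2 start sites. The only Cd36 window, chr5:17835847-17836146, is that of a start site inside the annotated gene, whose outer start at chr5:17888801 was not searched. The exact repeat AGGTCANAGGTCA was present in 13 of 32851 mouse windows (0.0396%), the looser AGGNCANAGGNCA in 125 (0.381%), and neither in the 8 windows of these genes. A lone AGGTCA was present in 5340 windows (16.3%) and in 5 of the 8, namely those of Ucp3, Cd36, Plin2 and both of Plin5. The stretches below are shown because they set genes that were lower in the M92KO libraries (Ucp3, Plin5) beside genes that were not called (Cd36, Plin2). Each is 5′ to 3′ on the strand of the gene, with the hexamer in capitals, read as TGACCT where it lies on the other strand.
Ucp3, 149 bases before the start, chr7:100472830-100472859, plus strand: ttaaagagccccAGGTCAcggaagctaaac
Ucp3, 44 bases before the start, chr7:100472935-100472964, plus strand: gaattaggtttcAGGTCAgctggtgcacag
Plin5, 170 bases before the start, chr17:56117701-56117730, minus strand: agtcctagtctgAGGTCAgccatggtgact
Cd36, 228 bases before the start, chr5:17836107-17836136, minus strand: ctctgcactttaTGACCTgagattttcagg
Plin2, 218 bases before the start, chr4:86670260-86670289, minus strand: tttcaggaccccTGACCTaagtcagacagc
The hexamer was thus present near genes of both kinds. The match in the other Plin5 window begins 13 bases after the start. No match was found in the windows of Acot1, Ucp2 and Fabp3, which says only that these letters are absent from those windows.

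The WT libraries held 38246649 to 48209846 counts and the M92KO libraries, all of them smaller, 33160508 to 37019640. A floor of 3 counts came to between 0.0629 and 0.0916 CPM, which covers counting error only, and all 9 genes lay above it in all 6 libraries. Genes were compared with edgeR's quasi-likelihood test on 15788 genes, whose median log2 fold change (M92KO over WT) was -8.07e-05. At an unadjusted p-value under 0.05, 1092 genes (6.92%) were lower and 863 (5.47%) were higher in the M92KO mice. With the Benjamini-Hochberg adjustment, 0 genes (0%) were under 0.05 with edgeR, and the smallest adjusted p-value was 0.124. With DESeq2's Wald test, 322 of the 13335 genes to which it gave an adjusted p-value (2.41%) were under 0.05, and none of the 9 PPAR targets was among them. With 3 mice in each group the smallest two-sided p-value of an exact permutation test is 0.1. The muscle marker Acta1 (skeletal actin) lay between 25646 and 27457 CPM in all 6 libraries.

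Against those shares, 4 of the 9 genes were lower and 0 were higher at an unadjusted p-value under 0.05. The 9 genes and the lists below were chosen with earlier results of these data known, so counts beside these shares are a description. Their log2 fold changes were negative for 7 genes and positive for 2, with a median of -0.25. Every M92KO value lay below every WT value for 2 of the 9, Plin5 and Acot1, and for 9.58% of all genes tested. After adjustment 0 of the 9 passed with either tool. In whole muscle, fewer cells of a type and less RNA in each cell cannot be told apart.

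**Figure D1:**
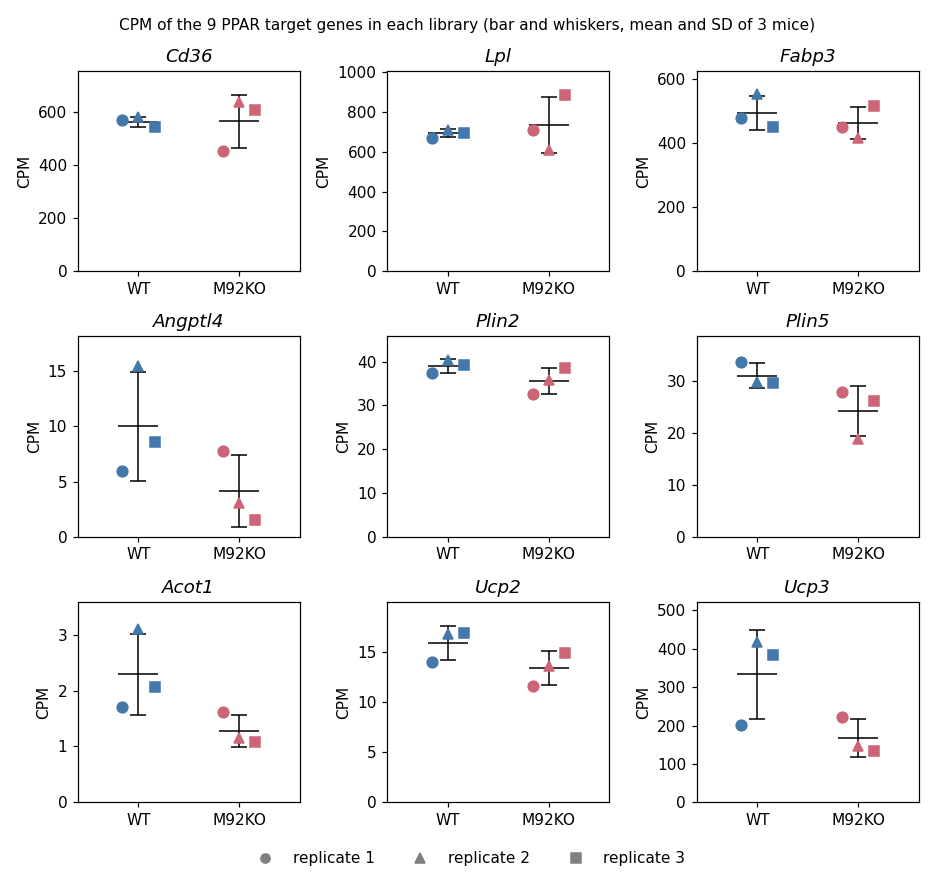
Level of each of the 9 genes in each library, in CPM (y axis, from 0), for WT (blue) and M92KO (red) mice; symbols give the replicate number, and the bar and whiskers the mean and SD of 3 mice. Plin5 and Acot1 are the 2 genes whose groups do not overlap, and in Angptl4 and Ucp3 the first WT library lies below the first M92KO library.

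Fatty acids are freed from circulating lipoproteins, taken across the membrane and then bound in the cytosol, and none of the 3 genes of these steps was called. Lpl (ENSMUSG00000015568, chr8:68880491-68907448, plus strand) encodes lipoprotein lipase, which releases fatty acids from triglyceride in the capillary. Its levels were 670, 710 and 696 CPM in the WT libraries and 707, 610 and 884 CPM in the M92KO libraries. The M92KO values lay on both sides of the WT values and spread more widely, with an SD of 139 CPM against 20.4 CPM. M92KO over WT, the log2 fold change was 0.08 ± 0.13 (SE), with a 95% confidence interval from -0.20 to 0.37 (edgeR adjusted p = 0.835, exact permutation p = 0.8).

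Cd36 (ENSMUSG00000002944, chr5:17781690-17888801, minus strand) encodes the membrane protein that takes up long-chain fatty acids. It measured 571, 581 and 545 CPM in WT and 454, 639 and 608 CPM in M92KO mice. The first M92KO library was the lowest of the 6 and the other M92KO libraries were the highest. The group means, 566 ± 18.9 and 567 ± 99.1 CPM, gave a log2 fold change of 0.00 ± 0.12 (95% confidence interval -0.28 to 0.28, edgeR adjusted p = 0.996). Without the first M92KO library the log2 fold change was 0.14 and passed the unadjusted threshold, and it was negative without the second (-0.09) or the third M92KO library (-0.05) or the third WT library (-0.03).

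Fabp3 (ENSMUSG00000028773, chr4:130308595-130315463, plus strand) encodes the fatty acid binding protein of muscle and heart. WT libraries held 476, 550 and 450 CPM and M92KO libraries 450, 416 and 515 CPM. The groups overlapped, with the second WT library highest and the second M92KO library lowest. Fabp3 had a log2 fold change of -0.10 ± 0.11 (95% confidence interval -0.34 to 0.14, edgeR adjusted p = 0.765). Of the 50-base stretches of its exons, 29.2% also occur in the pseudogene Fabp3-ps1, and its exons overlap Gm10570 by 80 bases and Zcchc17 by 81 bases on the other strand. How the counting treated such reads is not given in the sources used here.

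Angptl4 (ENSMUSG00000002289, chr17:33773750-33781830, minus strand) encodes a secreted inhibitor of lipoprotein lipase and had the widest spread of the 9. The WT libraries held 274, 598 and 409 of its reads and the M92KO libraries 271, 101 and 56, which correspond to 5.93, 15.5 and 8.57 CPM and to 7.80, 3.08 and 1.54 CPM. The second WT library was the highest and the third M92KO library the lowest, 10.04-fold apart. The groups overlapped, since the first M92KO library lay above the first WT library. The log2 fold change was -1.27 ± 0.54, a level in M92KO mice of 0.415 times that in WT, with a 95% confidence interval from -2.49 to -0.04 (edgeR adjusted p = 0.390, exact permutation p = 0.2). Its unadjusted call was lost on leaving out the second or the third WT library or the second or the third M92KO library. Without the second WT library the log2 fold change was -0.81, and without the first M92KO library it was -2.11.

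Perilipins coat the lipid droplet and control the access of lipases to it. Plin2 (ENSMUSG00000028494, chr4:86648386-86670060, minus strand), the perilipin found on droplets of most tissues, measured 37.4, 40.4 and 39.2 CPM in WT and 32.5, 35.8 and 38.6 CPM in M92KO mice. It varied least of the 9, 1.24-fold from the lowest to the highest library, and the third M92KO library lay among the WT libraries. Plin2 had a log2 fold change of -0.13 ± 0.08 (95% confidence interval -0.31 to 0.05, edgeR adjusted p = 0.565).

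Plin5 (ENSMUSG00000011305, chr17:56111601-56117596, minus strand) encodes the perilipin of oxidative tissues, which holds droplets close to mitochondria. Its levels were 33.6, 29.8 and 29.4 CPM in WT and 27.8, 18.8 and 25.97 CPM in M92KO mice. All M92KO values lay below all WT values, with the second M92KO library apart from the rest. The log2 fold change was -0.36 ± 0.14, or 0.781 times the WT level (95% confidence interval -0.67 to -0.04, edgeR adjusted p = 0.361, exact permutation p = 0.1, the smallest possible). Without the second M92KO library the log2 fold change was -0.20 and the unadjusted call was lost, as it also was without the first WT library (-0.29) or the second (-0.38). Within each library, the ratio of Plin5 to Plin2 counts was 0.900, 0.738 and 0.751 in WT and 0.854, 0.525 and 0.673 in M92KO mice. The groups overlapped in this ratio (log2 difference -0.24, exact permutation p = 0.4, adjusted over 3 ratios p = 0.4).

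Acot1 (ENSMUSG00000072949, chr12:84009490-84018371, plus strand) encodes a cytosolic thioesterase that releases free fatty acids from acyl-CoA. It was the least abundant of the 9, with 79, 120 and 99 reads in the WT libraries and 56, 38 and 39 reads in the M92KO libraries, or 1.71, 3.11 and 2.07 CPM and 1.61, 1.16 and 1.07 CPM. The groups did not overlap, but the lowest WT and the highest M92KO library, both numbered 1, were close to each other. Acot1 had a log2 fold change of -0.83 ± 0.28, or 0.558 times the WT level (95% confidence interval -1.47 to -0.19, edgeR adjusted p = 0.304, exact permutation p = 0.1). The unadjusted call was lost without the second WT library (-0.56), the second M92KO library (-0.77) or the third M92KO library (-0.72). Of the 50-base stretches of its exons, 19.2% also occur in other genes, 13.6% in its relative Acot2, so reads of these genes could have been shared and the Acot1 level is uncertain. Acot2, the mitochondrial relative, was itself lower, at 21.7, 28.2 and 20.3 CPM in WT and 16.3, 14.1 and 17.0 CPM in M92KO mice, a log2 fold change of -0.57 ± 0.14 (edgeR adjusted p = 0.188). The ratio of Acot1 to Acot2 counts was 0.0969 ± 0.0162 in WT and 0.0814 ± 0.0179 in M92KO mice, and the groups overlapped (exact permutation p = 0.4, adjusted over 3 ratios p = 0.4).

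Uncoupling proteins sit in the inner membrane of the mitochondrion, and Ucp3 is the form typical of skeletal muscle while Ucp2 is found in many tissues. Ucp3 (ENSMUSG00000032942, chr7:100472990-100486432, plus strand) and Ucp2 (ENSMUSG00000033685, chr7:100493337-100502020, plus strand) are neighbours on the same strand. Ucp3 measured 201, 417 and 384 CPM in WT and 223, 146 and 133 CPM in M92KO mice. The second and the third WT library were far above the other 4, and the first WT library lay between the first and the second M92KO library. The log2 fold change was -0.998 ± 0.28, or 0.5005 times the WT level (95% confidence interval -1.64 to -0.36, edgeR adjusted p = 0.237, exact permutation p = 0.2). Among the 9 genes this was the only one to keep its unadjusted edgeR call in all 6 fits that left out a library, with log2 fold changes between -1.26 and -0.81.

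Ucp2 measured 13.9, 16.8 and 16.9 CPM in WT and 11.6, 13.6 and 14.9 CPM in M92KO mice. The third M92KO library lay above the first WT library, so the groups overlapped. Ucp2 had a log2 fold change of -0.25 ± 0.12 (95% confidence interval -0.53 to 0.03, edgeR adjusted p = 0.465, exact permutation p = 0.2), and its exons overlap Dnajb13 by 305 bases on the other strand. Ucp3 counts were 14.4, 24.9 and 22.7 times the Ucp2 counts in WT and 19.2, 10.7 and 8.92 times in M92KO mice. The groups overlapped in this ratio (log2 difference -0.72, exact permutation p = 0.2, adjusted over 3 ratios p = 0.4).

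**Figure D2:**
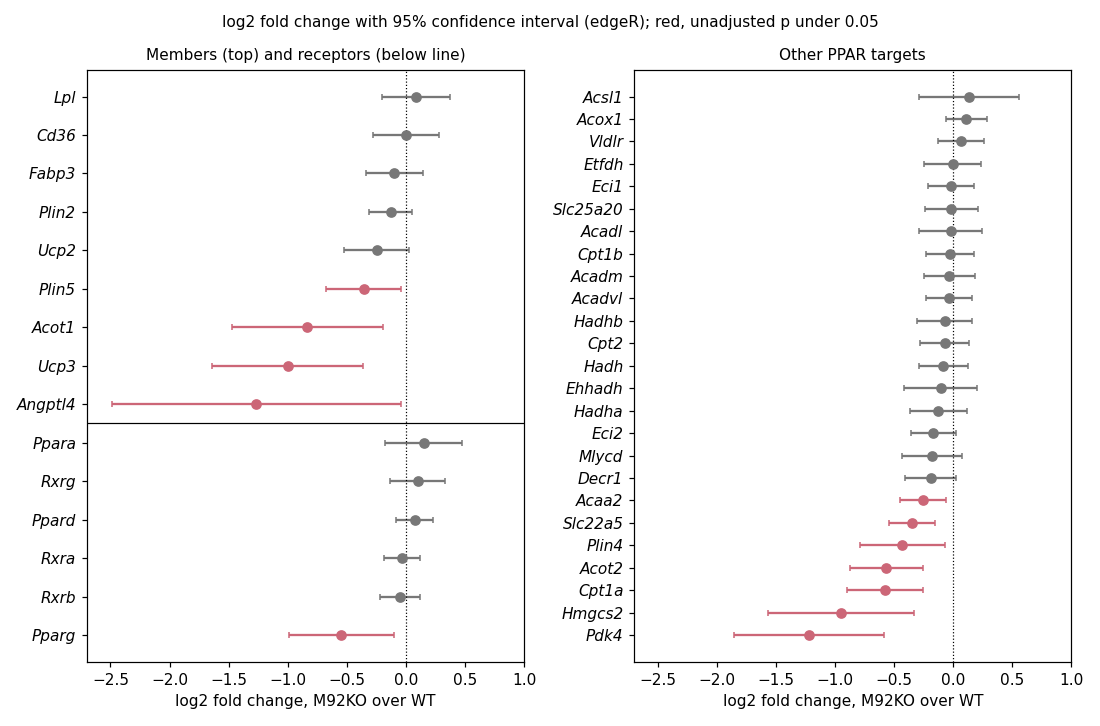
log2 fold change (x axis, M92KO over WT) with its 95% confidence interval from edgeR for the 9 genes and the PPAR and RXR receptors (left, above and below the line) and for other PPAR targets (right); red marks an unadjusted p-value under 0.05. Of the 9 genes, 4 are red and lower, and Cd36 and Lpl lie at or just above 0, while among the receptors Pparg alone is red.

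The abundance of the 9 genes per length of transcript was compared as CPM per kilobase of the longest annotated protein-coding transcript. In WT mice Fabp3 had the highest level, 598 ± 63.1 CPM per kilobase, and its lowest WT library lay above every WT library of the next gene. Lpl (168 ± 4.95), Cd36 (166 ± 5.55) and Ucp3 (136 ± 47.5) followed and overlapped each other in this unit. Plin2 (20.6 ± 0.807) and Plin5 (15.6 ± 1.17) came next, and their WT ranges did not overlap. Ucp2 (3.98 ± 0.417) and Angptl4 (3.02 ± 1.49) overlapped, and Acot1 (1.01 ± 0.319) was lowest. The order of the means was the same in M92KO mice. There, however, Ucp3 (68.3 ± 19.9 CPM per kilobase, highest library 91.1) lay below every M92KO library of Cd36 (lowest 133), and Angptl4 (1.25 ± 0.986) lay below every M92KO library of Ucp2 and overlapped Acot1 (0.564 ± 0.127). The order depends on the length used: per kilobase of all annotated exons, mean WT levels were 66.0 for Lpl against 107 for Ucp3, 11.1 for Plin2 against 14.8 for Plin5, and 2.27 for Ucp2 against 2.82 for Angptl4.

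The genes also differed in how far the libraries lay apart. From the lowest to the highest of the 6 libraries, CPM differed 10.04-fold for Angptl4, 3.14-fold for Ucp3, 2.89-fold for Acot1 and 1.79-fold for Plin5. The other 5 genes stayed between 1.24-fold (Plin2) and 1.46-fold (Ucp2). Angptl4 and Ucp3 shared their whole order of libraries, from the second WT library through the third WT, the first M92KO and the first WT library down to the second and the third M92KO library. Acot1 differed from that order only by an exchange of the first WT and the first M92KO library. The uptake genes Lpl and Cd36 had other orders, with M92KO libraries at both ends.

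**Figure D3:**
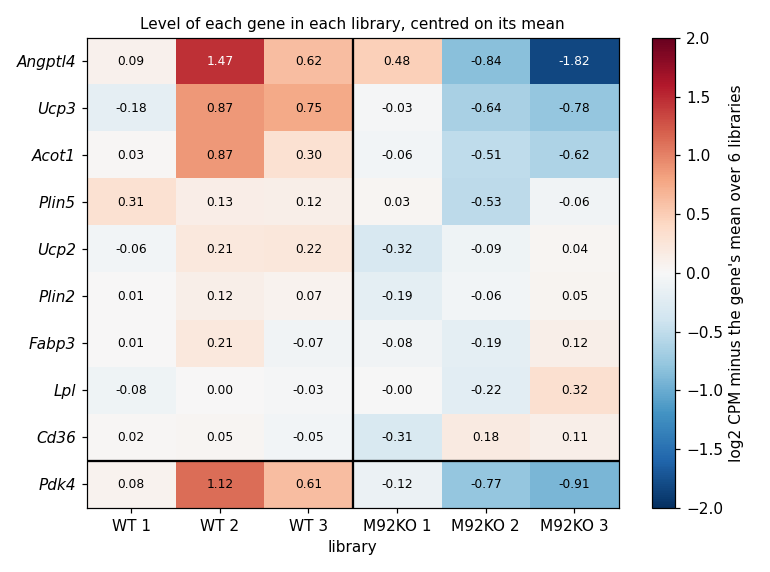
Level of each of the 9 genes, and of Pdk4, in each library as log2 CPM minus the mean of that gene over the 6 libraries; red is above and blue below the mean. Angptl4, Ucp3, Acot1 and Pdk4 are highest in the second WT library and lowest in the third M92KO library, while Lpl is highest in the third M92KO library.

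For the 3 genes with the widest spread, the genes with the most similar pattern were those with the smallest root mean square difference of centred log2 CPM over the 6 libraries. Nearest to Ucp3 (SD 0.63 on the log2 scale over the 6 libraries) were Unc13c at 0.17, Pdk4 at 0.18 and Aldh9a1 at 0.19. Nearest to Acot1 (SD 0.50) were Adgrb2 at 0.065, Aldh9a1 at 0.12 and Ccrl2 at 0.14. Nearest to Angptl4 (SD 1.06) were Tmem82 at 0.23, Gkn3 at 0.39 and Gm38782 at 0.41. All 6 libraries enter both this measure and the comparison of genotypes, and the likeness is a description.

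The receptors themselves were measured in the same libraries. Ppara and Ppard, the PPARs of oxidative tissues, had mean levels of 37.0 and 29.7 CPM in WT and 41.1 and 31.2 CPM in M92KO mice, with log2 fold changes of 0.15 ± 0.14 and 0.07 ± 0.07. Their RXR partners had log2 fold changes of -0.03 ± 0.07 (Rxra), -0.05 ± 0.07 (Rxrb) and 0.10 ± 0.10 (Rxrg). Pparg, the PPAR best known from fat cells and macrophages, was the only receptor called. It measured 6.17, 7.84 and 10.6 CPM in WT and 5.30, 6.26 and 5.32 CPM in M92KO mice, a log2 fold change of -0.55 ± 0.20 (edgeR adjusted p = 0.328). The second M92KO library lay just above the first WT library. Of the 13 receptors and coregulators, 1 was lower and 1 was higher at the unadjusted threshold, against 6.92% and 5.47% of all genes tested. The 1 lower gene was Pparg. The 1 higher gene was Lpin1, which encodes a phosphatidate phosphatase that also acts as a PPAR coactivator (log2 fold change 0.28 ± 0.11, edgeR adjusted p = 0.361). The median log2 fold change of the 13 was 0.02.

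Other known PPAR targets, mainly of fatty acid oxidation, were listed as 26 genes, of which 25 were tested. This list too was chosen with earlier results of these data known. Fgf21 had 0 counts in all 6 libraries, which allows up to 0.0629 to 0.0916 CPM. At an unadjusted p-value under 0.05, 7 of the 25 were lower and 0 were higher, against 6.92% and 5.47% of all genes tested, and 0 passed after adjustment with edgeR. Their median log2 fold change was -0.08, and 8 of the 25 had all M92KO values below all WT values, against 9.58% of all genes tested. Pdk4, the kinase that shuts off pyruvate dehydrogenase, measured 864, 1775 and 1251 CPM in WT and 754, 481 and 435 CPM in M92KO mice (log2 fold change -1.22 ± 0.28, edgeR adjusted p = 0.179). Cpt1a, a carnitine palmitoyltransferase, had a log2 fold change of -0.58 ± 0.14 (edgeR adjusted p = 0.192), and Slc22a5, the carnitine transporter, one of -0.35 ± 0.08 (edgeR adjusted p = 0.195). With Acot2 these are the 4 genes of the list with the smallest p-values. Cpt1b, the carnitine palmitoyltransferase typical of muscle, measured 498 CPM in WT and 489 CPM in M92KO mice and was not called. DESeq2 gave Cpt1a and Acot2 an adjusted p-value of 0.013 each.

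Genes that act with the 9 were read as a further list. Of 17 genes for lipase cofactors, droplet lipolysis and triglyceride synthesis, 14 were tested, 1 was lower and 0 were higher, against 6.92% and 5.47% of all genes tested, and the median log2 fold change was -0.08. The 1 gene was Slc27a1, a fatty acid transport protein (log2 fold change -0.41 ± 0.13, edgeR adjusted p = 0.281). Gpihbp1, which carries lipoprotein lipase to the capillary wall, measured 50.4, 69.6 and 57.2 CPM in WT and 46.8, 51.9 and 52.0 CPM in M92KO mice, and was not called.

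Of 20 genes related to the 9 by sequence family or function, 13 were tested, 4 were lower and 0 were higher, against 6.92% and 5.47% of all genes tested, with a median of -0.18. Angptl2 (91.3 CPM in WT, 68.5 CPM in M92KO mice, log2 fold change -0.41 ± 0.07, edgeR adjusted p = 0.165) and Angptl1 (-0.47 ± 0.15, edgeR adjusted p = 0.281) were lower, as was Plin4 (-0.43 ± 0.16, edgeR adjusted p = 0.336), a perilipin with 510 ± 106 CPM in WT muscle. Acot2 was the fourth. Plin4 and Acot2 also belong to the list of other PPAR targets and were already counted as lower there. DESeq2 gave Angptl2 an adjusted p-value of 0.0013. Angptl2 and Angptl1 are secreted proteins of the family of Angptl4 that are not known as inhibitors of lipoprotein lipase.

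Other cell types of the muscle also express several of the 9, and their markers were read in the same libraries. Of 8 fat cell markers, 7 were tested and 0 were called, with a median log2 fold change of 0.62, positive for 6 and negative for 1. Those with the smallest p-values were higher in M92KO mice, Cidec (log2 fold change 0.95 ± 0.47), Cfd (0.84 ± 0.43) and Retn (0.97 ± 0.72). Adipoq (adiponectin) lay between 0.67 and 2.05 CPM and Plin1 at or below 0.73 CPM in all libraries. The summed level was 314 to 365 CPM in WT and 313 to 393 CPM in M92KO mice. Fabp4 makes up most of it, so this sum says little of the other fat cell markers. Of 8 endothelial markers, 1 (Flt1) was lower and 0 were higher, with summed levels of 1109 to 1195 CPM in WT and 995 to 1174 CPM in M92KO mice. Their median log2 fold change was -0.15, negative for 7 and positive for 1. Of 7 macrophage and leukocyte markers, 1 (Ptprc) was lower and 0 were higher, with sums of 96.2 to 103 CPM in WT and 70.1 to 103 CPM in M92KO mice. Their median log2 fold change was -0.35, negative for 6 and positive for 1. Every M92KO value lay below every WT value for 2 of them, Ptprc and Mrc1 (-0.39 ± 0.18), and for 9.58% of all genes tested. At the unadjusted threshold, 6.92% of all genes tested were lower and 5.47% were higher. The part of these cell types in the levels of the 9 genes was not tested.

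Fibre types differ in how much fat they burn. Of 8 markers of slow and oxidative fibres, 0 were lower and 1 was higher, Myh2 of fast oxidative fibres, at 2124, 2239 and 1612 CPM in WT and 2018, 3575 and 4099 CPM in M92KO mice (log2 fold change 0.70 ± 0.24, edgeR adjusted p = 0.314). The second and the third M92KO library, which were lowest for Ucp3, Angptl4 and Acot1, were highest for Myh2. Of 9 markers of fast fibres, 0 were called in either direction, with a median of 0.00. Of 6 genes of skeletal muscle identity, 1 was higher (Des, log2 fold change 0.23 ± 0.07, edgeR adjusted p = 0.281, DESeq2 adjusted p = 0.036). The median log2 fold change was -0.22 for the slow and oxidative markers, negative for 5 and positive for 3, and 0.05 for the identity genes. Every M92KO value lay below every WT value for 1 slow and oxidative marker, Atp2a2 (-0.23 ± 0.11), and for 9.58% of all genes tested. At the unadjusted threshold, 6.92% of all genes tested were lower and 5.47% were higher. The part of the fibre types in the levels of the 9 genes was not tested.

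The calls depended on single mice. Without the second M92KO library or without the second WT library, 1 of the 9 genes was lower at an unadjusted p-value under 0.05, Ucp3 in both cases. Over all genes, in either direction, 1691 and 1222 passed that threshold in these fits, against 1955 as reported. Without the first WT, the third WT or the third M92KO library, 4, 3 and 3 of the 9 genes were lower. Over all genes, in either direction, 1600, 1272 and 1710 passed in these fits. How many of those genes were lower was not counted. Without the first M92KO library, 4 of the 9 genes were lower. The number of the 9 genes higher was 1 without the first M92KO library, Cd36, and 0 otherwise. In the fit without the first M92KO library the number over all genes rose to 2984. With the steps of the study's supplementary methods (quantile normalization, log2 and limma), 0 of the 9 passed the unadjusted threshold, which 2287 of all genes passed. The log2 fold changes of the 4 genes nevertheless stayed between -1.42 (Angptl4) and -0.36 (Plin5).

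**Figure D4:**
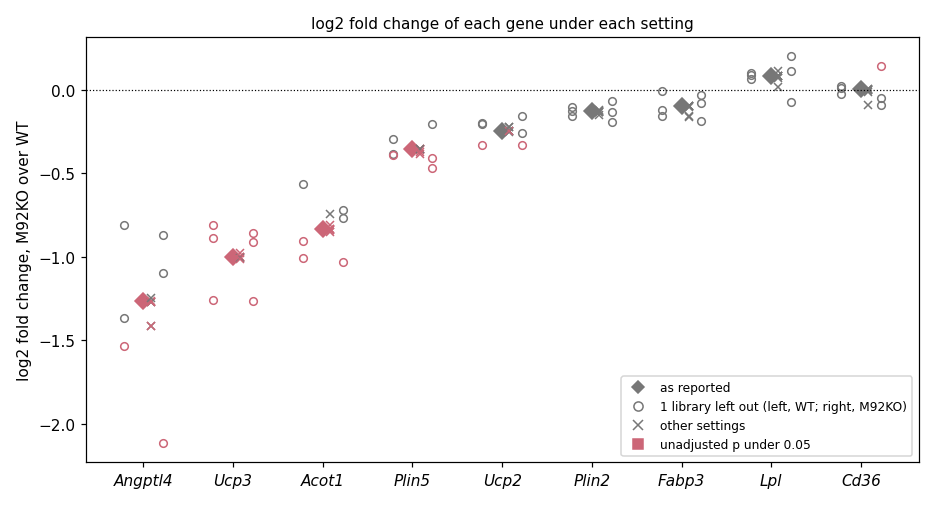
log2 fold change (y axis, M92KO over WT) of each of the 9 genes as reported (diamond), with 1 library left out (circles, WT left and M92KO right) and under the other settings (crosses); red marks an unadjusted p-value under 0.05. Ucp3 stays red in every circle, between -1.26 and -0.81, whereas Angptl4 spans -2.11 to -0.81 and Cd36 lies on both sides of 0.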

How the data were processed

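The authors deposited raw counts, whole read numbers for 34714 gene symbols, of 6 Gas libraries (3 WT, 3 M92KO) made from total RNA with a SMARTer mRNA kit and not normalized. The submitters' processing notes name the builds GRCm38 and mm10. The aligner, the counting program, its use of strand and the annotation are not given in the sources used here, and reads shared by similar or overlapping genes could be counted on either. No column of the table was left out.

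The 9 genes and all lists were chosen with earlier results of these data known. The counts were compared with edgeR 4.0.16 in R 4.3.3 (filterByExpr, minimum count 10, minimum total count 15; TMM; glmQLFit and glmQLFTest, no covariate), and the Benjamini-Hochberg adjustment covered all 15788 genes tested. CPM use TMM-normalized library sizes. The SE is the log2 fold change divided by the root of the test's F value. Exact permutation tests were two-sided, on log2 CPM or log2 ratios. The labels give 3 separate samples a group and 1 library each. No batch or date is given.

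All 9 genes are named, all PPAR and RXR receptors, from each other list at most the 4 with the smallest p-values, and 3 genes of similar pattern for each of the 3 widest ranging genes. Cpt1b, Fgf21, Adipoq, Fabp4 and Acta1 fall outside that rule and were named after their values were seen. Positions, exons and 3′-UTRs are from GENCODE M21 (GRCm38), and miRNA and promoter sequences from RefSeq (GRCm38.p6). The alternatives were DESeq2's size factors, DESeq2 1.42.0, other filters, limma 3.58.1 with the supplementary steps, a replicate block, each library left out, and, chosen after seeing the data, offsets for GC content and transcript length. Figures were made with matplotlib 3.10.9.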

Additional observations from a re-analysis of the deposited data

How the results depend on the processing

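For the 9 genes, 90 of 117 values under 13 alternatives for each gene kept their direction and their side of the unadjusted threshold. Leaving out each library in turn gave 1 to 4 genes of the 9 lower and 0 to 1 higher. The log2 fold change ranged from -2.11 to -0.81 for Angptl4 (called in 2 of 6 fits), -1.26 to -0.81 for Ucp3 (6 of 6), -1.03 to -0.56 for Acot1 (3 of 6), -0.47 to -0.20 for Plin5 (3 of 6), -0.33 to -0.16 for Ucp2 (2 of 6, without the first WT or the third M92KO library), -0.19 to -0.07 for Plin2, -0.18 to -0.01 for Fabp3, -0.07 to 0.20 for Lpl and -0.09 to 0.14 for Cd36. Lpl turned negative without the third M92KO library (-0.0708). Cd36 turned negative without the second (-0.0929) or the third M92KO library (-0.05) or the third WT library (-0.03).

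The steps of the supplementary methods left 0 of the 9 called, with log2 fold changes of -1.42 (Angptl4), -0.36 (Plin5), -0.74 (Acot1) and -1.01 (Ucp3). Angptl4 also lost its call with DESeq2 (-1.27) and with the GC and length offsets (-1.25). Cd36 was -0.0029 with no filter, -0.0912 with the supplementary steps and -0.0127 with the replicate block. The cause was not tested. Over all genes, adjusted p-values under 0.05 numbered 322 with DESeq2, 42 with the supplementary steps, 6 with no filter and 2 with the block, against 0 as reported, and 0 to 401 with a library left out, most without the first M92KO library; 1222 to 2984 genes had an unadjusted p-value under 0.05 in those fits.

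The replicate numbers are shared between the groups, but deviations of same-numbered libraries correlated at 0.0806, 0.0376 and 0.0151, so the numbers were not taken to pair the mice. With the replicate block Ucp2 passed the unadjusted threshold (-0.25), and the calls of the other 8 genes did not change. Acot1, at 38 to 120 counts, and Angptl4, at 56 to 598 counts, are the genes for which depth limits precision most, and 3 mice a group limit all 9.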

Other observations

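A set of 12 genes known to be induced by fasting outside lipid handling was read in the same libraries, since several of the 9 PPAR targets are also induced by fasting. At an unadjusted p-value under 0.05, 3 of the 12 were lower and 0 were higher in the M92KO mice, against 6.92% and 5.47% of all genes tested, 0 passed after adjustment with edgeR, and the median log2 fold change was -0.33. Slc25a25, a mitochondrial carrier, measured 208, 321 and 669 CPM in WT and 110, 181 and 189 CPM in M92KO mice (log2 fold change -1.32 ± 0.39, edgeR adjusted p = 0.256). The third WT library was the highest for this gene, whereas the second was the highest for Angptl4, Ucp3 and Acot1. Cdkn1a, a cell cycle inhibitor, had a log2 fold change of -0.82 ± 0.30 (edgeR adjusted p = 0.336), and Foxo1, a transcription factor that insulin signalling keeps out of the nucleus, one of -0.21 ± 0.08 (edgeR adjusted p = 0.352). The atrophy gene Fbxo32 measured 380 CPM in WT and 307 CPM in M92KO mice and was not called. Whether feeding differed between the mice was not tested.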
